A study of Homo sapiens with 12 samples.

Results

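The 10 MAP kinase phosphatase genes DUSP1, DUSP2, DUSP4, DUSP5, DUSP6, DUSP7, DUSP8, DUSP9, DUSP10 and DUSP16 were followed through RNA-seq of A375, a widely used human melanoma cell line that carries a BRAF mutation. They were taken by name from the 58347 genes counted in each sample, and all 10 were found and passed the filter on low counts, as did 16740 genes in all. The 12 samples fell into 4 groups of 3 replicates, each exposed for 8 h: the dimethyl sulfoxide vehicle (DMSO), tretinoin, vemurafenib, and vemurafenib with tretinoin (the combination). The labels give 5 µM for each of the 4 groups, also for the vehicle. Vemurafenib is an inhibitor of mutant BRAF, and tretinoin (all-trans retinoic acid) is an agonist of the retinoic acid receptors. All groups are the same cell line, and nothing states that the replicates were separate cultures, so a p-value measures the spread between these samples, which may be technical.

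MAP kinase phosphatases are dual-specificity enzymes: they remove the phosphate from both the threonine and the tyrosine in the activation loop of a MAP kinase and so switch it off. Many of their genes are themselves switched on by the kinase that they inactivate, which makes them negative feedback regulators, and in BRAF-mutant melanoma their mRNAs are used as readouts of ERK signalling. DUSP1, DUSP2, DUSP4 and DUSP5 encode the nuclear, inducible enzymes. DUSP6, DUSP7 and DUSP9 encode the cytoplasmic enzymes that prefer ERK. DUSP8, DUSP10 and DUSP16 encode enzymes that act mainly on the stress-activated kinases JNK and p38.

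Total counts per sample ran from 13510235 to 21534377. Tretinoin replicate 1 stood apart from the other tretinoin samples, with a chi-square per degree of freedom over genes of 19.1 and 21.8 against replicates 2 and 3, beside 2.56 to 8.38 for all other pairs within a group. Of 7 melanocyte lineage markers, MITF, the lineage transcription factor, had a level of 17.6 ± 1.88 CPM (TMM-normalized counts-per-million) in DMSO and S100B had 9.08 ± 0.568, both as mean ± SD of 3, while SOX10 was listed at 0 in all 12 samples and MLANA, TYR and DCT did not pass the count filter. In GENCODE 29, 2.4% of the exon bases of SOX10 are shared with POLR2F on the opposite strand, and the overlap in the release the authors counted on was not checked, so the 0 is given only as listed. The summed level of these markers was 25.9 to 30.8 CPM with DMSO and 42.1 to 44.0 CPM with vemurafenib. With vemurafenib MITF was at 32.4 ± 0.714 CPM and S100B at 9.22 ± 0.402 CPM. Summed markers of other cell types were also higher with vemurafenib: 12.5 to 16.4 against 29.4 to 32.1 CPM for 3 keratinocyte or epithelial genes, 3.22 to 4.54 against 8.47 to 10.4 CPM for 2 fibroblast genes, 0.838 to 2.36 against 2.44 to 3.49 CPM for 2 leukocyte genes and 1.003 to 2.23 against 2.34 to 2.96 CPM for 2 endothelial genes. Of 16 markers 10 were tested. With vemurafenib 5 were called higher (MITF, KRT14, COL1A1, PTPRC and VWF) and none lower, beside 26.4% and 26.3% of all genes. The other markers were not called or not tested, and their means moved both ways. PECAM1 went from 0.960 to 0.521 CPM and PMEL from 1.16 to 0.790, while KRT5 went from 3.31 to 4.09 and DCN from 0.618 to 1.16. CD3E was at 0.238 and 0.236 CPM. The part of these shifts in the results was not tested. In bulk RNA, a change in the number of cells of a type and a change in RNA per cell cannot be told apart.

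Promoters of 6 of the genes are shown so that members that fell and the member that rose can be read side by side. Each window spans 250 bases before and 50 bases after the RefSeq transcription start (GRCh38.p14), 5′ to 3′ on the gene's own strand, with capitals marking matches to the motifs searched. DUSP6, the gene that fell furthest, DUSP2, DUSP1 and DUSP7 were lower with vemurafenib, DUSP16 was higher, and DUSP8 is shown for its repeated motif.
DUSP6: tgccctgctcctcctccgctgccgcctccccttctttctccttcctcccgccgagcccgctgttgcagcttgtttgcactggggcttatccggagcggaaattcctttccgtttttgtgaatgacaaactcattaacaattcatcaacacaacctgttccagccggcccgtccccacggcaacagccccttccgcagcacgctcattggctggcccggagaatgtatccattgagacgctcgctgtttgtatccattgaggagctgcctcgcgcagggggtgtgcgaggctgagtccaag
DUSP2: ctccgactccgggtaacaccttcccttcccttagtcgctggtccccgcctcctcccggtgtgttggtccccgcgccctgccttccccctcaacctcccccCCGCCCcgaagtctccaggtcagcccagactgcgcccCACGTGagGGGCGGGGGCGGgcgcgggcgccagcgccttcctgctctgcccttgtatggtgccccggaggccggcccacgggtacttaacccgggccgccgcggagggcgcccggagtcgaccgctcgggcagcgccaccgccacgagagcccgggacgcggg
DUSP1: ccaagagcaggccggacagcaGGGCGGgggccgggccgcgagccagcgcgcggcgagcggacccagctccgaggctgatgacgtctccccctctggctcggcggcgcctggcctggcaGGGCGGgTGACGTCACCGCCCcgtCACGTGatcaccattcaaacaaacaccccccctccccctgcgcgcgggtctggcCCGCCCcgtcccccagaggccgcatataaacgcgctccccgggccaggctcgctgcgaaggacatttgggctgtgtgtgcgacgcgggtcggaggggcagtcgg
DUSP7: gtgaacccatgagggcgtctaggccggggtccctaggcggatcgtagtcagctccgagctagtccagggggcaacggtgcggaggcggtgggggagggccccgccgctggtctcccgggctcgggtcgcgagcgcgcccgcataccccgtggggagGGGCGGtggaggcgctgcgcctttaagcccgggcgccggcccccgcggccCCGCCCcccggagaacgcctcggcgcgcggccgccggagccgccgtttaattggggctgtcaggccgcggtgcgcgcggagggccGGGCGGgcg
DUSP16: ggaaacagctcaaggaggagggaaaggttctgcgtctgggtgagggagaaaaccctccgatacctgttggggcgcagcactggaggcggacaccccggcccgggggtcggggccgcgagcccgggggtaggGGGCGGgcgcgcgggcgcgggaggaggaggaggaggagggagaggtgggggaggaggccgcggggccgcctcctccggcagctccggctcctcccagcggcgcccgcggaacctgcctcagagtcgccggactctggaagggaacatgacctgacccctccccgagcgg
DUSP8: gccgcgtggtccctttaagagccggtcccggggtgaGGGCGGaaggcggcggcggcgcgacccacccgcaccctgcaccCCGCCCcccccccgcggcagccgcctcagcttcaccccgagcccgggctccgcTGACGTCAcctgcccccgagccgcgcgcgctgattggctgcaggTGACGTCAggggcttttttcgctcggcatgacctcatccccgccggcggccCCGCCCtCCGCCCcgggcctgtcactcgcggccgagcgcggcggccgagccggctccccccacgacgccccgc

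These windows lie at chr12:89352452-89352751 (DUSP6), chr2:96145391-96145690 (DUSP2), chr5:172771146-172771445 (DUSP1), chr3:52056522-52056821 (DUSP7), chr12:12562814-12563113 (DUSP16) and chr11:1572222-1572521 (DUSP8), all on the minus strand. Windows were used for 8 of the 10 genes, all but DUSP4 and DUSP5, with a pair of windows each for DUSP9 and DUSP10. Both strands were searched for 6 motifs. The cAMP response element TGACGTCA, held by 1.85% of all 35116 promoter windows of this length, occurred in DUSP1 (first base at -125 from the start) and at 2 places in DUSP8 (-118 and -74). The E-box CACGTG, held by 7.26% of windows, occurred in DUSP1 at -108 and in DUSP2 at -113. The GC box GGGCGG, held by 45%, occurred in every window printed above except that of DUSP6. The ETS-type motif CCGGAA (17.2% of windows), the AP-1 motif TGANTCA (7.71%) and the serum response element (1.29%) matched none of the members' windows. The DUSP6 window matched none of the 6 motifs, and its GC content of 58.3% was near the median of all windows, 58.7%. The windows of DUSP1, DUSP2, DUSP7, DUSP8 and DUSP16 held 73.3% to 78.3%, and those of DUSP9 76.3% and 75.3%. Both windows of DUSP10, a gene not called with vemurafenib, were lower than that of DUSP6, at 55%. A match is a description of letters and not of a bound site.

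With vemurafenib, the mRNA of 7 of the 10 phosphatases fell and that of 1 rose. In edgeR's quasi-likelihood test, with p-values adjusted over all 16740 genes, DUSP1, DUSP2, DUSP4, DUSP5, DUSP6, DUSP7 and DUSP9 were lower than in DMSO and DUSP16 was higher. Over all genes 26.3% were called lower and 26.4% higher. The members' median log2 fold change was -1.46, beside 0.02 over all genes tested. All 4 nuclear and all 3 cytoplasmic ERK-directed members were among those that fell, and none of the JNK- and p38-directed members was.

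**Figure D1:**
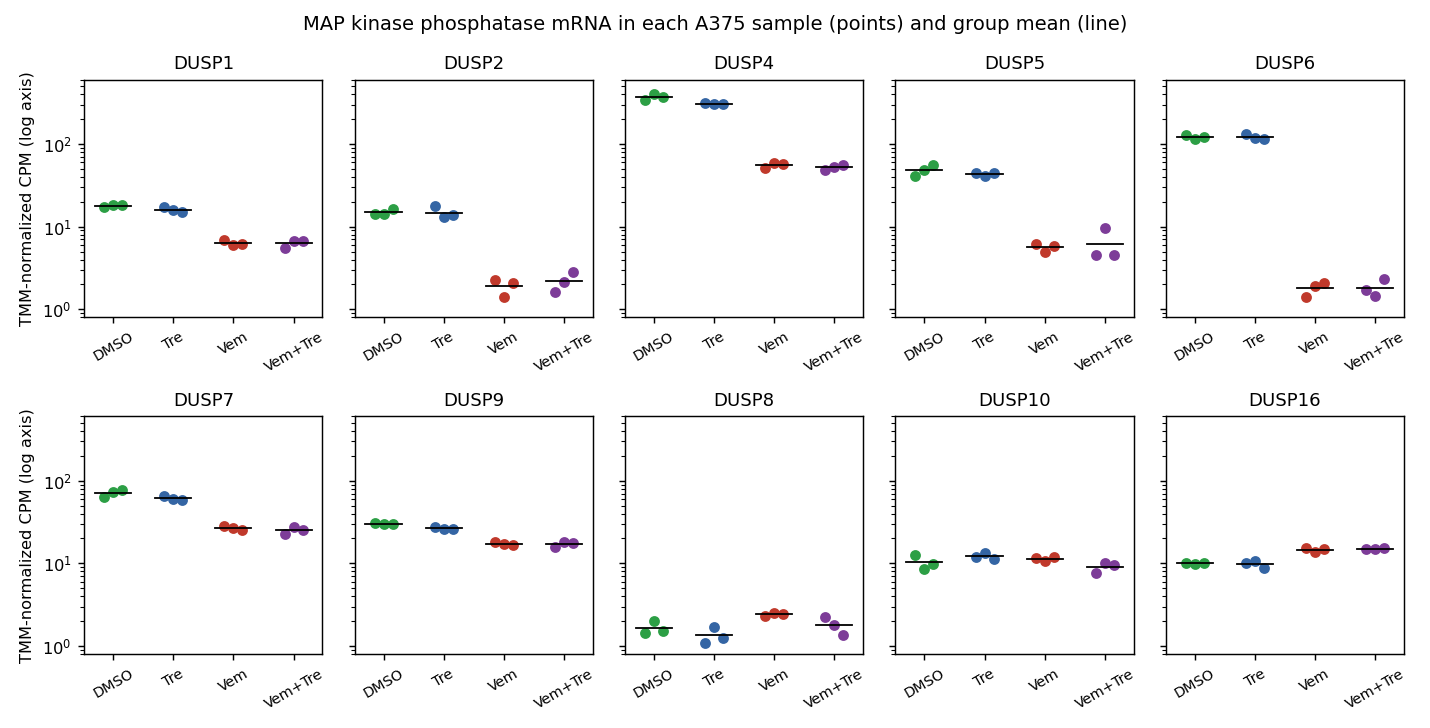
Each panel shows 1 gene, with TMM-normalized counts-per-million on a log axis for the 3 samples (points) of each group and the group mean (line); Tre is tretinoin, Vem is vemurafenib and Vem+Tre is the combination. The vemurafenib and combination samples lie below the DMSO and tretinoin samples for DUSP1, DUSP2, DUSP4, DUSP5, DUSP6, DUSP7 and DUSP9, and above them for DUSP16. Over all genes 26.3% were called lower and 26.4% higher with vemurafenib. The share of all genes whose samples separate in this way is not given.

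DUSP6 encodes the cytoplasmic phosphatase MKP-3, which binds ERK and holds it in the cytoplasm. The gene lies at chr12:89347232-89353271 on the minus strand of GRCh38, and its level in CPM was 127, 116 and 122 in the DMSO samples and 1.40, 1.92 and 2.10 in the vemurafenib samples. The highest vemurafenib sample was thus far under the lowest DMSO sample. The fitted level was 67.3-fold lower with vemurafenib (95% CI 55.6 to 81.4; log2 fold change -6.07, SE 0.13, adjusted p = 9.36e-16). Of the 16740 genes tested, only 3 had a lower log2 fold change. The raw counts behind the low group were 27, 40 and 35, against 1969, 1719 and 2313 in DMSO. With the combination the level was 1.71, 1.44 and 2.31 CPM, again under every DMSO sample, and the log2 fold change against DMSO was -6.05 (SE 0.128, adjusted p = 7.66e-16). Tretinoin alone left DUSP6 at 134, 119 and 115 CPM, a range that overlapped DMSO, with a log2 fold change of 0.01 (95% CI -0.17 to 0.19).

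The counting ignored strand, and 1875 of the 4632 exon bases of DUSP6 (40.5%) are overlapped in GENCODE 29 by the antisense gene AC024909.2. The overlap was not checked in GENCODE 27, on which the authors counted. With the same overlap there, fragments in that stretch would be assigned to neither gene, in every group alike. AC024909.2 itself had between 0 and 5 counts in a sample. The DUSP6 level per length would then be understated, and dividing by the 2757 bases that are not shared gave 44.1 in place of 26.3 RPKM (CPM per kilobase of exon) in DMSO and 0.657 in place of 0.391 with vemurafenib. The fold change does not depend on this length.

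DUSP7 and DUSP9, the other cytoplasmic members, had smaller fitted falls than DUSP6. DUSP7 (chr3:52048919-52056550, minus strand), which encodes the ERK phosphatase MKP-X, had 63.0, 73.6 and 77.5 CPM with DMSO and 27.9, 26.5 and 25.3 CPM with vemurafenib. The groups did not overlap, and the level was 2.68-fold lower (95% CI 2.35 to 3.07; log2 fold change -1.42, SE 0.091, adjusted p = 7.78e-10). Its combination samples had 22.7, 27.4 and 25.1 CPM, a log2 fold change of -1.51 against DMSO (adjusted p = 3.4e-10). DUSP9 (chrX:153642492-153651326, plus strand), which encodes MKP-4, had 30.8, 29.6 and 30.3 CPM with DMSO and 18.2, 17.0 and 16.5 CPM with vemurafenib. This was the smallest of the 7 falls, 1.75-fold (95% CI 1.55 to 1.98; log2 fold change -0.81, SE 0.083, adjusted p = 2.88e-07), and still left every vemurafenib sample under every DMSO sample. With the combination DUSP9 was at 15.7, 18.2 and 17.8 CPM, also a log2 fold change of -0.81 against DMSO (adjusted p = 2.64e-07).

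Of the nuclear enzymes, DUSP4 had by far the highest level. DUSP4 (chr8:29333064-29350668, minus strand), which encodes MKP-2, stood at 345, 408 and 367 CPM with DMSO and at 51.7, 58.4 and 57.8 CPM with vemurafenib. All vemurafenib samples were lower, by 6.67-fold in the fit (95% CI 5.93 to 7.51; log2 fold change -2.74, SE 0.081, adjusted p = 2.39e-14). The combination samples, at 48.6, 52.5 and 55.6 CPM, gave a log2 fold change of -2.84 against DMSO (adjusted p = 1.44e-14).

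DUSP5 and DUSP2 fell as well, from lower starting levels. DUSP5 (chr10:110497838-110511544, plus strand), whose product inactivates and anchors ERK in the nucleus, went from 41.4, 48.4 and 55.1 CPM with DMSO to 6.13, 4.96 and 5.83 CPM with vemurafenib. That is 8.59-fold lower (95% CI 6.47 to 11.4; log2 fold change -3.10, SE 0.195, adjusted p = 6.02e-10), with no overlap. DUSP2 (chr2:96143166-96145440, minus strand), an inducible nuclear enzyme also called PAC1, went from 14.4, 14.3 and 16.5 CPM to 2.23, 1.40 and 2.10 CPM. The fall was 7.94-fold (95% CI 6.01 to 10.5; log2 fold change -2.99, SE 0.191, adjusted p = 7.92e-10). The intervals of the 3 log2 fold changes overlapped, at -3.51 to -2.69 for DUSP5, -3.39 to -2.59 for DUSP2 and -2.91 to -2.57 for DUSP4, and differences between genes were not tested. In the combination, DUSP2 was at 1.596, 2.14 and 2.81 CPM (log2 fold change against DMSO -2.77, adjusted p = 1.15e-09). DUSP5 was at 4.57, 9.52 and 4.57 CPM there (log2 fold change against DMSO -2.95, adjusted p = 7.78e-10), so that combination replicate 2 stood well above the other 2 samples of its group and yet under every DMSO sample.

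DUSP1, an immediate early gene whose product, MKP-1, acts on JNK, p38 and ERK, had the smallest fitted fall of the nuclear members. DUSP1 (chr5:172768090-172771195, minus strand) had 17.3, 18.2 and 18.05 CPM with DMSO and 6.80, 5.97 and 6.19 CPM with vemurafenib. The groups were apart, with a 2.82-fold fall (95% CI 2.41 to 3.30; log2 fold change -1.50, SE 0.108, adjusted p = 3.5e-09). With the combination it was at 5.56, 6.74 and 6.75 CPM (log2 fold change against DMSO -1.49, adjusted p = 2.96e-09).

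The 3 members directed mainly to JNK and p38 behaved otherwise. DUSP16 (chr12:12474210-12562383, minus strand), which encodes the JNK phosphatase MKP-7, had 10.2, 9.79 and 9.97 CPM with DMSO and 15.2, 13.7 and 14.96 CPM with vemurafenib. Every vemurafenib sample was higher (log2 fold change 0.55, SE 0.098, 95% CI 0.34 to 0.76, adjusted p = 0.000152). It was at 14.97, 14.9 and 15.2 CPM with the combination (log2 fold change against DMSO 0.59, adjusted p = 6.84e-05). DUSP8 (chr11:1554044-1571920, minus strand) was the gene with the fewest counts in DMSO, 22, 30 and 29, or 1.42, 2.03 and 1.53 CPM, and had 2.29, 2.502 and 2.46 CPM with vemurafenib. These samples did not overlap, but the test did not pass the threshold (log2 fold change 0.55, SE 0.241, 95% CI 0.04 to 1.06, adjusted p = 0.0644), and passed it without DMSO replicate 2 (adjusted p = 0.0416). In the combination DUSP8 had 2.26, 1.81 and 1.36 CPM, which overlapped DMSO. DUSP10 (chr1:221701424-221742176, minus strand), which encodes MKP-5, had 12.6, 8.44 and 9.92 CPM with DMSO and 11.5, 10.6 and 11.8 CPM with vemurafenib, overlapping ranges with a log2 fold change of 0.12 (95% CI -0.17 to 0.42, adjusted p = 0.472).

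**Figure D2:**
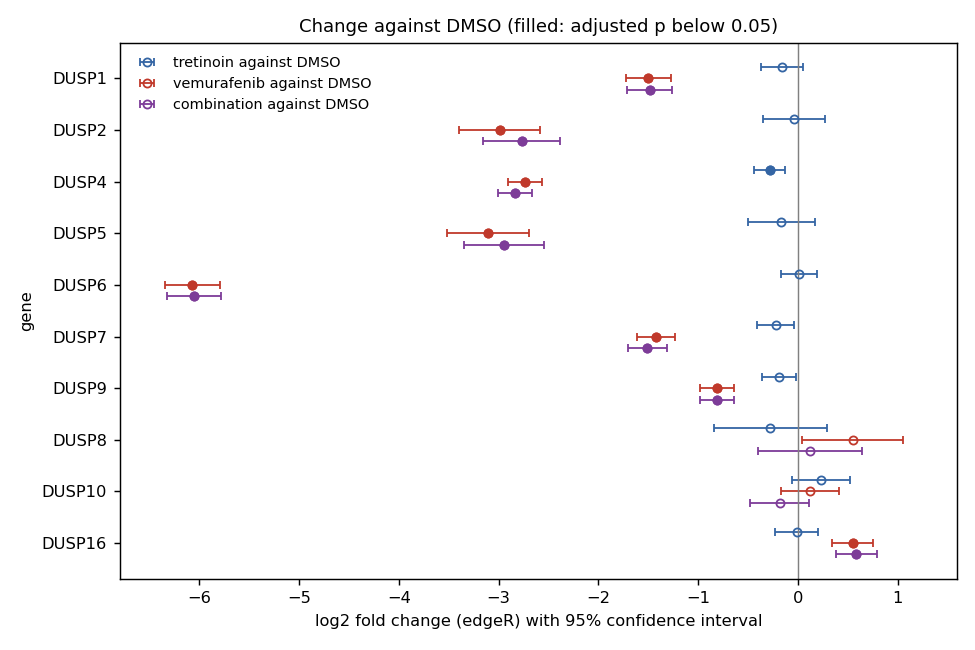
The log2 fold change of each gene against DMSO (horizontal axis, edgeR) is given with its 95% confidence interval for tretinoin (blue), vemurafenib (red) and the combination (purple), with filled points where the adjusted p was below 0.05. The vemurafenib and combination points lie close together for each of the 7 genes that fell, from -6.07 and -6.05 for DUSP6 to -0.81 and -0.81 for DUSP9, while the tretinoin points lie between -0.28 and 0.23.

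The combination against DMSO called 7 members lower (DUSP1, DUSP2, DUSP4, DUSP5, DUSP6, DUSP7 and DUSP9) and 1 higher (DUSP16), beside 26.5% of all genes lower and 27.1% higher, with a median of -1.50 over the members. Both comparisons used the same DMSO samples. Against tretinoin, the combination was lower for 8 members and higher for 1 (over all genes 25% and 24.1%). The additional member was DUSP10, at 11.9, 13.2 and 11.3 CPM with tretinoin and 7.59, 10.1 and 9.51 CPM with the combination (log2 fold change -0.42, SE 0.138, adjusted p = 0.0187). The ranges did not overlap, but the call was lost without tretinoin replicate 2 (adjusted p = 0.0724), without combination replicate 1 (adjusted p = 0.0917) and with normalization by total counts alone (adjusted p = 0.0747).

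The scaling bears on the balance of rising and falling genes. With total counts alone, 39.3% of all genes were called higher and 15.7% lower with vemurafenib, since the median of all genes moved to 0.21 on the log2 scale. The split was 37.3% and 17.4% for the combination against DMSO (median 0.19), 30.2% and 19.5% for the combination against tretinoin (median 0.11), 4.53% and 1.04% for tretinoin and 0.215% and 0.789% for the interaction (median -0.11). Under that scaling each of the 7 members that fell with vemurafenib was again called lower, and DUSP8 joined DUSP16 as higher (log2 fold change 0.75, adjusted p = 0.0138).

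With tretinoin alone, DUSP4 was the only member called, lower, while 2.2% of all genes were called lower and 3.48% higher. A count of 1 in 10 is near those shares and is no result about the members. In this comparison none of the members was called higher with edgeR or with DESeq2, nor at an unadjusted p below 0.05. At that unadjusted p 3 members were lower, and the share of all genes there is not given. DUSP4 had 311, 305 and 303 CPM with tretinoin, all under the DMSO samples given above (log2 fold change -0.28, SE 0.075, adjusted p = 0.0331). The call depended on which sample was left out. It was lost without DMSO replicate 2 (log2 fold change -0.22, adjusted p = 0.202) and without DMSO replicate 3 (-0.29, adjusted p = 0.0694). The call was lost too without tretinoin replicate 2 (-0.28, adjusted p = 0.0775) and without tretinoin replicate 3 (-0.28, adjusted p = 0.0545). Without tretinoin replicate 1, the sample that stood apart, it held (log2 fold change -0.30, adjusted p = 0.0135), and without DMSO replicate 1 too (adjusted p = 0.028). It was also lost with total counts alone (adjusted p = 0.0895) and with only these 2 groups in the fit (adjusted p = 0.144). DUSP7, at 65.8, 59.9 and 58.2 CPM, had a log2 fold change of -0.22 (95% CI -0.41 to -0.04, adjusted p = 0.136), and DUSP9, at 27.4, 25.8 and 26.2 CPM, of -0.19 (95% CI -0.36 to -0.02, adjusted p = 0.16). Neither passed the threshold. DUSP1 had 17.3, 15.7 and 15.1 CPM, DUSP5 44.2, 40.9 and 44.5 CPM, DUSP2 17.7, 12.96 and 13.7 CPM, DUSP16 10.0, 10.8 and 8.87 CPM and DUSP8 1.10, 1.69 and 1.26 CPM, each overlapping DMSO, with an adjusted p of at least 0.358.

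The study asked what tretinoin adds to vemurafenib. The combination was called different from vemurafenib for none of the 10 members in edgeR or in DESeq2, beside 2.27% of all genes higher and 2.2% lower, and at an unadjusted p below 0.05 for 1 member, DUSP10. At those shares few calls among 10 genes would be made in any case, so the count says nothing particular to the members, and the intervals give what was measured. The share of all genes at an unadjusted p below 0.05 is not given. The log2 difference between combination and vemurafenib was 0.02 for DUSP6 (95% CI -0.41 to 0.45), -0.10 for DUSP4 (95% CI -0.27 to 0.07), -0.08 for DUSP7 (95% CI -0.28 to 0.11), 0.00 for DUSP9 (95% CI -0.18 to 0.18), 0.01 for DUSP1 (95% CI -0.23 to 0.26) and 0.04 for DUSP16 (95% CI -0.16 to 0.23). For the genes with few counts the intervals were wider, also that of DUSP6 above, which had 27 to 51 counts in these samples. DUSP2 was at 0.22 (95% CI -0.29 to 0.73) and DUSP8 at -0.43 (95% CI -0.91 to 0.05). The DUSP5 difference of 0.16 (95% CI -0.32 to 0.63) rested on combination replicate 2 and was -0.30 without it. DUSP10 was at -0.31 (95% CI -0.60 to -0.02, adjusted p = 0.306).

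The interaction of the drugs, the effect of tretinoin in the presence of vemurafenib less its effect in DMSO, was called for none of the members with either tool, beside 0.382% of all genes higher and 0.424% lower. DUSP10 had the most negative value, -0.54 on the log2 scale (95% CI -0.95 to -0.13), and was the only member with an unadjusted p below 0.05, at an adjusted p = 0.219. The share of all genes at that unadjusted p is not given. Without tretinoin replicate 1 none of the members was called for the interaction in edgeR, and the combination against tretinoin again called 8 lower and 1 higher. With all replicates kept, the mean of DUSP10 was 10.3 ± 2.12 CPM with DMSO, 12.1 ± 0.954 with tretinoin, 11.3 ± 0.621 with vemurafenib and 9.06 ± 1.303 with the combination (SD, n = 3).

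**Figure D3:**
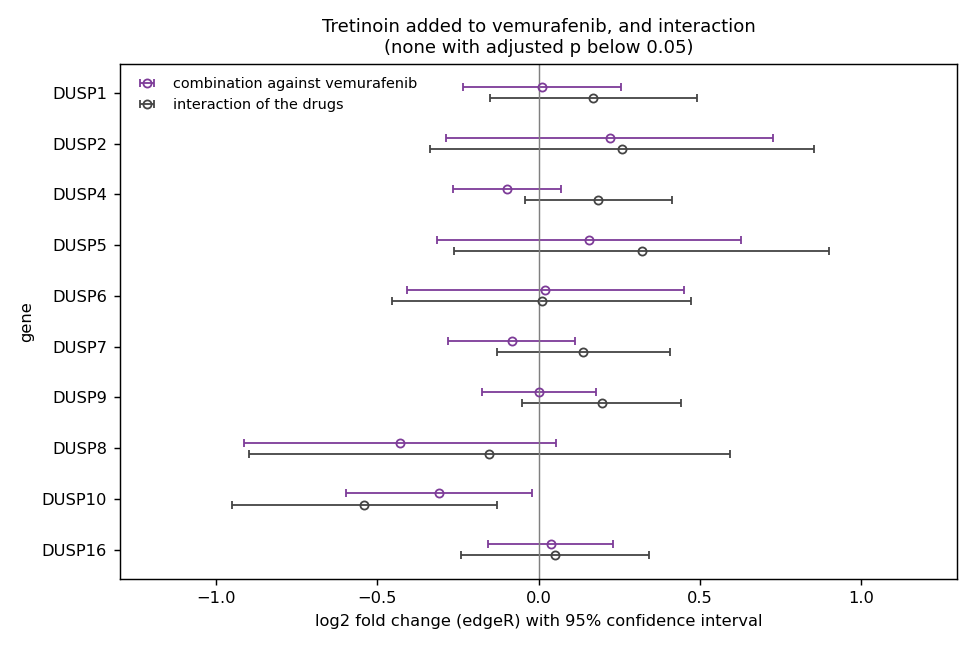
The combination against vemurafenib (purple) and the interaction of the drugs (dark grey) are plotted for each gene on the horizontal axis as log2 fold change with its 95% confidence interval. All points lie between -0.54 and 0.32, and the interval of DUSP10 alone excludes 0 in both comparisons, with no adjusted p below 0.05.

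Levels of different genes were compared per length, as RPKM over the union of annotated exons. In DMSO the order was DUSP4 (51.4 RPKM), DUSP6 (26.3), DUSP5 (18.5), DUSP7 (12.6), DUSP9 (10.9), DUSP1 (8.84), DUSP2 (7.79), DUSP10 (3.55), DUSP16 (1.74) and DUSP8 (0.359), and no neighbours in this order overlapped among their 3 samples. With tretinoin the order was the same, and only DUSP1 and DUSP2 overlapped. With vemurafenib the order of levels became DUSP4 (7.71 RPKM), DUSP9 (6.21), DUSP7 (4.71), DUSP10 (3.87), DUSP1 (3.13), DUSP16 (2.56), DUSP5 (2.16), DUSP2 (0.989), DUSP8 (0.524) and DUSP6 (0.391), again with no neighbours overlapping. DUSP6 thus went from the second most abundant member to the least abundant. In the combination DUSP1, DUSP10, DUSP16 and DUSP5 overlapped each with the next, as did DUSP6 and DUSP8. With the longest transcript as the length, DUSP7 stood above DUSP5 and DUSP2 above DUSP1 in DMSO, and DUSP7 above DUSP9 with vemurafenib. With only the unshared bases as length, DUSP6 with vemurafenib was at 0.657 RPKM, above DUSP8.

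The summed level of the 10 genes was 142 ± 5.73 RPKM with DMSO, 127 ± 5.74 with tretinoin, 32.2 ± 0.755 with vemurafenib and 31.0 ± 2.94 with the combination (SD, n = 3). Every vemurafenib or combination sample was lower than every sample without vemurafenib, the highest of them at 33.5 RPKM and the lowest of the others at 124. The nuclear members made up 60.9% ± 2.16 of the sum in DMSO and 43.4% ± 0.88 with vemurafenib. The JNK- and p38-directed members made up 3.996% ± 0.662 and 21.6% ± 0.638, although their own summed level was 5.65 ± 0.702 RPKM with DMSO and 6.95 ± 0.333 RPKM with vemurafenib. The cytoplasmic ERK-directed members kept a share of 35.1% in both groups when all exon bases were used, but went from 42.4% ± 1.86 to 35.6% ± 1.24 when only unshared bases were used. Within that class DUSP6 gave 18.5% of the whole sum in DMSO and 1.21% with vemurafenib, while DUSP9 went from 7.69% to 19.2%.

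**Figure D4:**
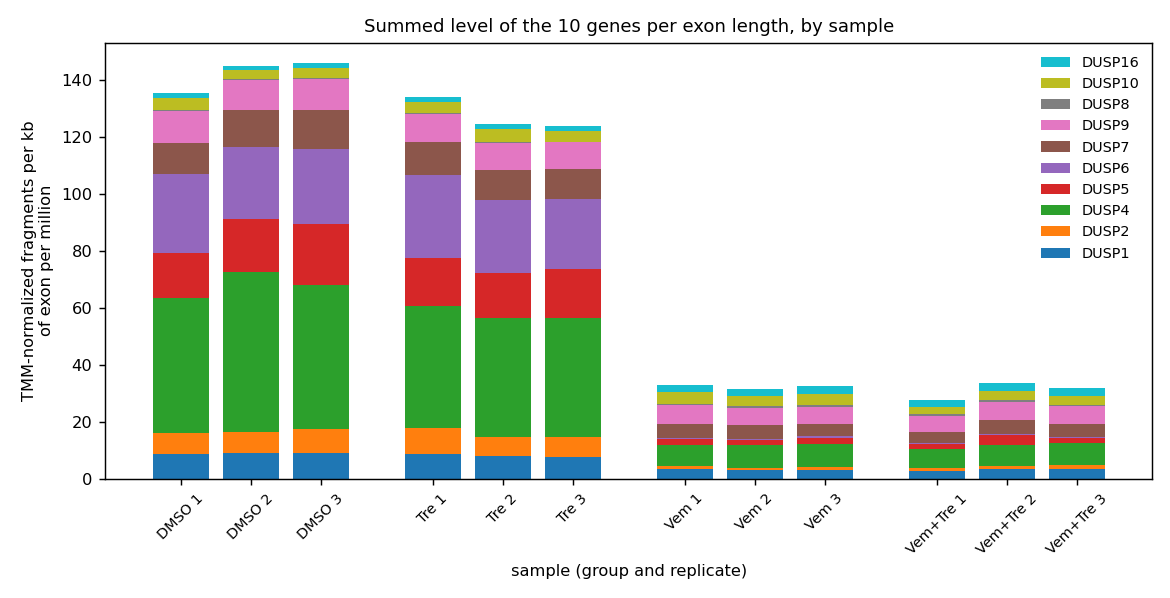
Each bar is 1 sample, and its coloured parts are the levels of the 10 genes per exon length (TMM-normalized RPKM), stacked from 0. The bars of DMSO and tretinoin reach 124 to 146 and those of vemurafenib and the combination 27.8 to 33.5, where the parts of DUSP6, DUSP5 and DUSP2 are thin.

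Other genes of the pathway, from lists chosen with earlier results known, set the members in context. Of 20 genes of ERK pathway output and feedback, all tested, vemurafenib lowered 19 and raised 1, beside 26.3% and 26.4% of all genes. The median log2 fold change of the 20 was -2.78. The furthest falls were those of SPRY4 (-6.55, adjusted p = 2.29e-15), a Sprouty inhibitor of receptor tyrosine kinase signalling, and ETV5 (-4.67, adjusted p = 1.76e-14), an ETS transcription factor. SPRY3 alone rose (1.07, adjusted p = 0.00915), from 7 to 22 counts in the DMSO samples to 22 to 38 with vemurafenib. Tretinoin alone changed 5 of these 20, with EGR1 (log2 fold change 0.68) and PHLDA1 (0.45) higher and CCND1 (-0.44), ERRFI1 (-0.34) and IER3 (-0.30) lower. Over all genes it called 3.48% higher and 2.2% lower. Added to vemurafenib, tretinoin raised 3 in edgeR, EPHA2 (0.84), PHLDA1 (0.52) and MYC (0.44), where DESeq2 called 2 higher and 1 lower. In edgeR 2.27% of all genes were higher and 2.2% lower there, and DESeq2 called 378 higher and 422 lower of 17490. The interaction was called in edgeR for EPHA2 alone (0.86, adjusted p = 0.00238), and in DESeq2 for 3 of these genes, all higher. Over all genes edgeR called 0.382% higher and 0.424% lower for the interaction, and DESeq2 called 124 higher and 130 lower of 15869.

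These phosphatases act on MAP kinases, and genes of that family were listed whether or not their products are known substrates. Of 14 listed 11 were tested, and with vemurafenib 2 were called higher and 2 lower, beside 26.4% and 26.3% of all genes. The difference in share was not tested. The 2 higher were MAPK3, encoding ERK1 (0.46, adjusted p = 0.000202), and MAPK7, encoding ERK5 (0.39, adjusted p = 0.0113). NLK, encoding Nemo-like kinase (-0.45, adjusted p = 0.00131), and MAPK8, encoding JNK1 (-0.31, adjusted p = 0.012), were the 2 lower, and the median was -0.08. None of these 11 was called with tretinoin by edgeR or DESeq2, nor at an unadjusted p below 0.05. The share of all genes at that unadjusted p is not given. Over all genes edgeR called 3.48% higher and 2.2% lower with tretinoin.

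Phosphatases of other families that act on MAP kinases showed small changes apart from 1 gene. Of 12 listed, 11 were tested, and with vemurafenib 4 were lower and 1 higher, beside 26.3% and 26.4% of all genes. Among the 4 were the catalytic subunits of protein phosphatase 2A, PPP2CA (-0.52, adjusted p = 6.49e-06) and PPP2CB (-0.51, adjusted p = 1.73e-06). The 1 that rose was PTPN7, a tyrosine phosphatase of ERK and p38 found mainly in blood cells, by 2.77 (SE 0.52, adjusted p = 0.000241). It also rose with tretinoin (2.43, adjusted p = 0.0144), and its counts were low throughout, 1 to 4 in the DMSO samples, 7 to 27 with tretinoin, 19 to 24 with vemurafenib and 31 to 53 with the combination. PTPRC, 1 of 2 leukocyte markers listed, had 13 to 26 counts in the DMSO samples. It was higher with vemurafenib (1.36, adjusted p = 0.00161) and with tretinoin (1.46, adjusted p = 0.0121). CD3E, the other, did not pass the count filter. Its mean was 0.238 CPM with DMSO, 0.236 with vemurafenib and 0.295 with tretinoin. The part of PTPRC in the PTPN7 values was not tested.

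Atypical dual-specificity phosphatases, which lack the kinase-binding domain of the MAP kinase phosphatases, and the related STYX and Slingshot genes moved both ways. Of 19 listed, 15 were tested, and with vemurafenib 5 were higher and 5 lower, with a median of 0.03. Over all genes 26.4% were higher and 26.3% lower, and the difference in share was not tested. The furthest rises were DUSP19 (1.23, adjusted p = 0.0013) and SSH3 (0.82, adjusted p = 1.23e-05), and the furthest falls SSH1 (-1.55, adjusted p = 2.06e-10) and DUSP23 (-0.65, adjusted p = 0.000524). SSH1 and SSH3 encode Slingshot phosphatases, which act on cofilin. With tretinoin edgeR called none of the 15 and DESeq2 called 1 lower, and 2 were lower at an unadjusted p below 0.05. Over all genes edgeR called 3.48% higher and 2.2% lower with tretinoin, and DESeq2 called 583 higher and 659 lower of 15869. The share of all genes at that unadjusted p is not given.

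**Figure D5:**
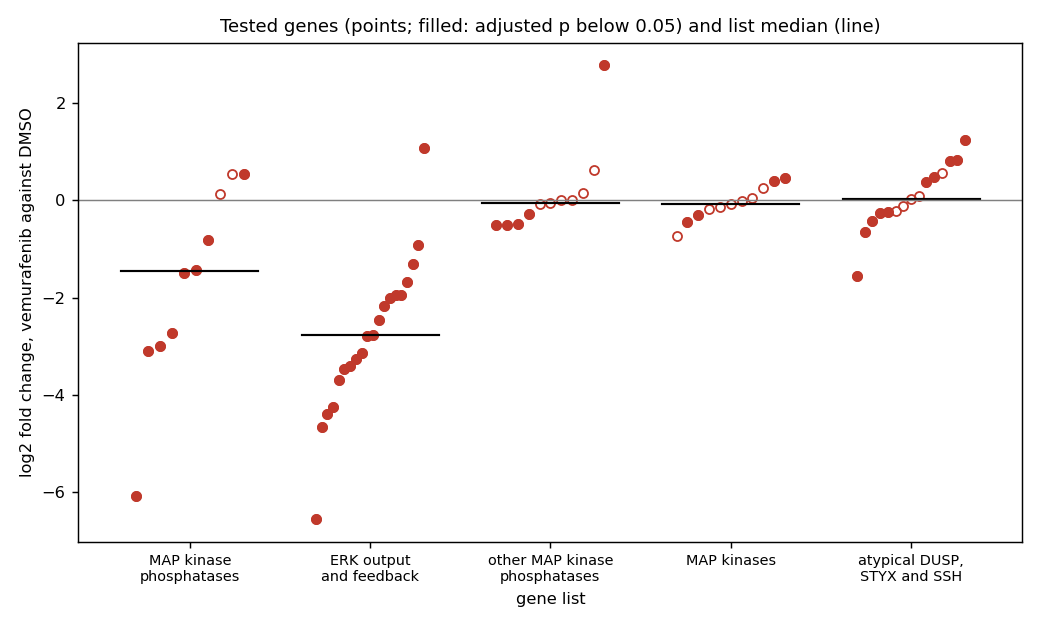
Each point is a tested gene at its log2 fold change with vemurafenib against DMSO (vertical axis), filled where the adjusted p was below 0.05, with a line at the median of each list. The medians are -1.46 for the 10 MAP kinase phosphatases, -2.78 for ERK output and feedback, -0.06 for other MAP kinase phosphatases, -0.08 for MAP kinases and 0.03 for the atypical phosphatases.

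The genes most like each member were those whose log2 CPM, centred over the 12 samples, had the smallest root mean square difference from the member's, given here as a description. For DUSP6, which spanned 6.47 log2 units over the samples, the nearest were SPRY4 (0.241), CXCL8 (0.428), ETV5 (0.721), ESM1 (0.729) and AREG (0.734). For DUSP4 they were TFAP2C (0.106), ERRFI1 (0.107) and PLAUR (0.119), for DUSP5 NEDD4L (0.269), SH3TC2 (0.274) and SPRY1 (0.282), and for DUSP2 GPR3 (0.179), ETV4 (0.201) and NEDD4L (0.224). For DUSP1 they were SLC35G2 (0.065), SPRED1 (0.0876) and PNO1 (0.0899), for DUSP7 HK2 (0.0842), UAP1 (0.097) and NRCAM (0.099), and for DUSP9 TFDP1 (0.0669), G3BP1 (0.0719) and SUV39H2 (0.076). DUSP16 was closest to MAPRE3 (0.0572), KLHL12 (0.0611) and AGBL5 (0.065), DUSP8 to DIRAS1 (0.16), ENOX1 (0.165) and CCDC102A (0.17), and DUSP10 to EXTL1 (0.123), CYP27B1 (0.134) and PELI3 (0.136). Between members, DUSP1 and DUSP7, of different classes, were the most alike pair (0.0786), and the next, DUSP2 and DUSP4, differed by 0.285. Small differences are easier to reach for members that changed little, and all samples share the 4 treatments.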

How the data were processed

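The authors prepared strand-specific libraries of polyadenylated RNA, aligned reads to GRCh38 with STAR 2.5.3a and counted fragments on GENCODE 27 genes in union mode with strand ignored. The authors deposited raw counts per gene, not normalized, for each of the 12 samples, and used DESeq2 themselves. Groups were taken from the sample labels.

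Genes were filtered with filterByExpr by group and normalized by TMM, and 1 quasi-likelihood model with a term per group was fitted to all 12 samples in edgeR 4.0.16 (R 4.3.3). Benjamini-Hochberg adjustment ran over 16740 genes, with a threshold of 0.05. The SE is the log2 fold change divided by the square root of F, and intervals are 95%. The fit was first tested on simulated counts, and the outcome is not given here and is used for no result. With total counts of 13510235 to 21534377, the SE against DMSO was largest for DUSP8, the member with the fewest DMSO counts. Exon lengths came from GENCODE 29 (58039 genes found), and promoters from RefSeq. A blastn 2.17.0 search of the members' exons against other genes, with minimums of 150 bases and 98% identity, returned AC024909.2 for DUSP6 and nothing else.

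All 10 members are named. From each list the 2 furthest rises and 2 furthest falls called with vemurafenib were named, with any further gene chosen after its values were seen. The members and lists were chosen with earlier results of these data known. Alternatives were DESeq2 1.42.0 with and without a beta prior, its size factors, total counts alone, only the groups compared, no filter or a minimum of 10 counts per sample, a replicate block, and each sample left out. Unshared exon bases as length were added after seeing the data. Replicates differed by more than counting noise (tretinoin replicate 1 most), so none was merged.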

Additional observations from a re-analysis of the deposited data

How the results depend on the processing

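Across 8 alternatives and the samples left out in turn, 823 of the log2 fold changes of the members kept their direction and their side of the threshold, 13 crossed the threshold and 44 changed sign. The 7 falls and the rise of DUSP16 with vemurafenib and with the combination against DMSO kept their calls throughout. The number of members called higher with vemurafenib was 2 with total counts alone, 2 with at least 10 counts in every sample and 2 with only the groups compared, when DUSP8 was added, and 1 to 2 when a sample was left out. The number called lower with tretinoin was 0 with total counts alone, 0 with only the groups compared and 0 to 1 when a sample was left out. The cause was not tested. The other gene lists were not refitted, apart from the DESeq2 counts given with some of them.

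All changes of sign were in values that were not called. With total counts alone these were, for tretinoin, DUSP2 at 0.038 and DUSP16 at 0.058, for the combination against vemurafenib, DUSP1 at -0.021, DUSP6 at -0.013 and DUSP9 at -0.031, and for the interaction, DUSP6 at -0.097 and DUSP16 at -0.052. DUSP6 with tretinoin was -0.0054 with DESeq2, with or without a beta prior, and -0.0029 without a filter, and DUSP6 in the combination against vemurafenib was -0.0049 with the beta prior. DUSP9 there was -0.0018 with DESeq2's size factors, -0.0040 with DESeq2 and -0.0042 with its beta prior. When a sample was left out, values for tretinoin ran from -0.18 to 0.048 (DUSP2), -0.057 to 0.053 (DUSP6) and -0.083 to 0.065 (DUSP16). For the combination against vemurafenib they ran from -0.036 to 0.094 (DUSP1), -0.0098 to 0.39 (DUSP2), -0.30 to 0.34 (DUSP5), -0.21 to 0.17 (DUSP6), -0.040 to 0.063 (DUSP9) and -0.010 to 0.065 (DUSP16). For the interaction they ran from -0.14 to 0.51 (DUSP5), -0.22 to 0.16 (DUSP6), -0.33 to 0.038 (DUSP8) and -0.029 to 0.12 (DUSP16), and for DUSP8 in the combination against DMSO from -0.061 to 0.29.

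Counts over all genes moved by over 1.5 times in comparisons with few calls. Tretinoin called 583 genes higher and 368 lower, beside 758 and 174 with total counts alone, 583 and 659 with DESeq2, 577 and 676 with its beta prior, 736 and 804 without a filter, 234 and 71 with only the groups compared, and 273 to 711 higher and 106 to 656 lower with a sample left out. The combination against vemurafenib called 380 and 369, beside 584 and 685 with only those groups and 254 to 343 higher and 203 to 271 lower with a sample left out. The interaction called 64 and 71, beside 36 and 132 with total counts alone, 124 and 130 with DESeq2, 389 and 221 without a filter, and 31 to 121 and 27 to 144 with a sample left out, the highest without tretinoin replicate 1. With vemurafenib and with the combination against DMSO, total counts alone called 2628 and 2916 lower in place of 4400 and 4440.

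The replicate numbers did not pair the samples: the 18 same-number pairs had correlations of deviations from -0.14 to 0.09 (mean -0.03), and no sample correlated best with its own number. With the replicate block, the members called were the same in number, 7 lower and 1 higher with vemurafenib and 1 lower with tretinoin, while over all genes tretinoin called 429 and 219 and the interaction 39 and 36.

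Limits: DUSP8 and, under vemurafenib, DUSP6 and DUSP2 rest on few counts, and the smallest change detectable there at this depth was not computed. Levels per length depend on the exon length chosen. One time point and 1 concentration were measured, on mRNA alone.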
